A study of Mus musculus with 27 samples.

Results

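The 10 genes Col4a1, Col4a2, Col6a1, Col6a2, Col6a3, Col8a1, Col12a1, Col14a1, Col15a1 and Col16a1 encode collagens that do not build the banded fibrils of bone. They were taken by name from the 37991 genes in the deposited tables, and all 10 passed the filter on low counts that left 15659 genes to test. The cells came from the calvariae, that is the roof of the skull, of neonatal C57BL/6J mice 5 to 9 days of age that carried Col3.6 CFP, a cyan fluorescent protein driven by a fragment of a collagen type I promoter. After 4 days in culture the fluorescent cells were sorted, and from then on all cells received ascorbic acid, β-glycerol phosphate and fetal bovine serum, so that the series holds no untreated group. RNA was sequenced on 9 days, every second day from day 2 to day 18, in 3 files a day. Those 3 files carry 1 barcode and differ in the lane, and they were counted as 1 library, although the paper describes them as triplicate samples. Every p-value below rests on that choice. Whether animals were pooled, and whether the days came from separate cultures, is not given in the sources used here. The p-values of the fits therefore measure the scatter of 9 single libraries around a fitted curve or around the means of groups of days. Those of the ratios come from permuting the days, which takes every order of the days as equally likely although they form a time series.

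Collagens are trimers of α chains, and the classes outside the fibrils differ in what they assemble into. Collagen IV, a trimer of Col4a1 and Col4a2 chains, forms the sheet of basement membranes, and collagen VIII forms a hexagonal lattice. Collagen VI combines 1 α1, 1 α2 and 1 α3 chain into beaded microfibrils that surround cells. The FACIT collagens XII, XIV and XVI have interrupted triple helices and lie along the surface of fibrils made of other collagens. Collagen XV, encoded by Col15a1, is usually counted as a multiplexin of the basement membrane zone and not as a FACIT, beaded or network collagen, and it is described here beside them.

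The stretches before the annotated starts of 5 of the genes are shown because their levels set the pattern of the results: the 3 chains of collagen VI, of which Col6a1 and Col6a2 rose while Col6a3 ended where it began, Col8a1, which had the highest level on every day, and Col15a1, which had the lowest level on day 2. Sequences were taken from RefSeq and placed in NCBIM37 by an exact match, and each runs 5′ to 3′ on the strand of its gene. The window is the 250 bases before the RefSeq start, and bases that the NCBIM37 annotation puts in an exon were left out, which shortened the Col6a1 stretch to 126 bases. Capitals mark a GC box, GGGCGG or its reverse complement.
Col6a1, chr10:76188914-76189039, minus strand: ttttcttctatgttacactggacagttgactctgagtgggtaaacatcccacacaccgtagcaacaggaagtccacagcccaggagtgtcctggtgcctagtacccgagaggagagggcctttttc
Col6a2, chr10:76086376-76086625, minus strand: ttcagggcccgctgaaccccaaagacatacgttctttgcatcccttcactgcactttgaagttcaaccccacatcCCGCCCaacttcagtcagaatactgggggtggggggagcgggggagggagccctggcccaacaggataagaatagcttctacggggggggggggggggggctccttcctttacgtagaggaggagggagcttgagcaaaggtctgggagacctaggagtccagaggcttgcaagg
Col6a3, chr1:92740549-92740798, minus strand: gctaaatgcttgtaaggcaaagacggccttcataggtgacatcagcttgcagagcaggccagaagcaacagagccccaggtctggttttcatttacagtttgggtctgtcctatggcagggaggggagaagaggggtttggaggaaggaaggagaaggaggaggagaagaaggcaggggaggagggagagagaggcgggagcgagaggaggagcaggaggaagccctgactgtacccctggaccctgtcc
Col8a1, chr16:57754851-57755100, minus strand: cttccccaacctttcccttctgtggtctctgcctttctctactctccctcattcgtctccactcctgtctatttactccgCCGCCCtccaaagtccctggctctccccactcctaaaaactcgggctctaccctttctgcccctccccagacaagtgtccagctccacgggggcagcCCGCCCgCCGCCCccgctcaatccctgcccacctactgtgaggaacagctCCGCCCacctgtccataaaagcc
Col15a1, chr4:47220634-47220883, plus strand: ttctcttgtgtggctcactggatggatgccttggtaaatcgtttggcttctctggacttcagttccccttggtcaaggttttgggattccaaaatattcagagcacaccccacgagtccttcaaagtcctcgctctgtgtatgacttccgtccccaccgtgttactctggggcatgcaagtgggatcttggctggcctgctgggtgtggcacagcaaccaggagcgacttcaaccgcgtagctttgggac
Of the 10 genes, 8 had an entry in the RefSeq promoter table, and Col12a1 and Col14a1 had none. Both strands were searched for the TATA box TATAAA, the CCAAT box CCAAT, the GC box GGGCGG and the AP-1 site TGANTCA. Over all 32851 windows of this length, 12.4% held the TATA box, 33.8% the CCAAT box, 32.7% the GC box and 6.75% the AP-1 site. The Col8a1 window held 4 GC boxes, which began 170, 73, 66 and 23 bases before the start. Col6a2 has a pair of annotated starts in the table. The window shown held 1 GC box, which began 175 bases before the start, and the other, of which all but 24 bases lie in an exon and which is not shown, held 3. The printed stretch of Col6a1 held none of the 4 motifs, but its full window held 1 AP-1 site, which began 90 bases before the start in the part left out as exon. The full windows of Col6a3 and Col15a1 held none. The window of Col4a1, not shown, held 1 CCAAT box. Those of Col4a2 and Col16a1, also not shown, each held 1 CCAAT box, with 2 GC boxes in Col4a2 and 1 in Col16a1. A match describes the letters of the window and says nothing of what binds there.

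Levels are given as TPM, RSEM's relative abundance of transcripts, a unit that allows for transcript length. The TPM of each file were divided by the upper quartile of its values above 0 and multiplied by the mean upper quartile, and the mean of the 3 files of a day is printed. Over the 18 days the genes fell into distinct time courses. Col14a1 and Col15a1 went from low to moderate levels, with a highest day 142 times and 88.0 times the lowest. Col6a1, Col6a2 and Col16a1 rose between 3.86-fold and 5.67-fold from the lowest to the highest day, and Col8a1 2.61-fold. Col6a3 and Col12a1 peaked on day 12 and ended at 0.999 and 0.982 times their day 2 level. Col4a1 and Col4a2 stayed within 1.24-fold and 1.47-fold over all days.

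**Figure D1:**
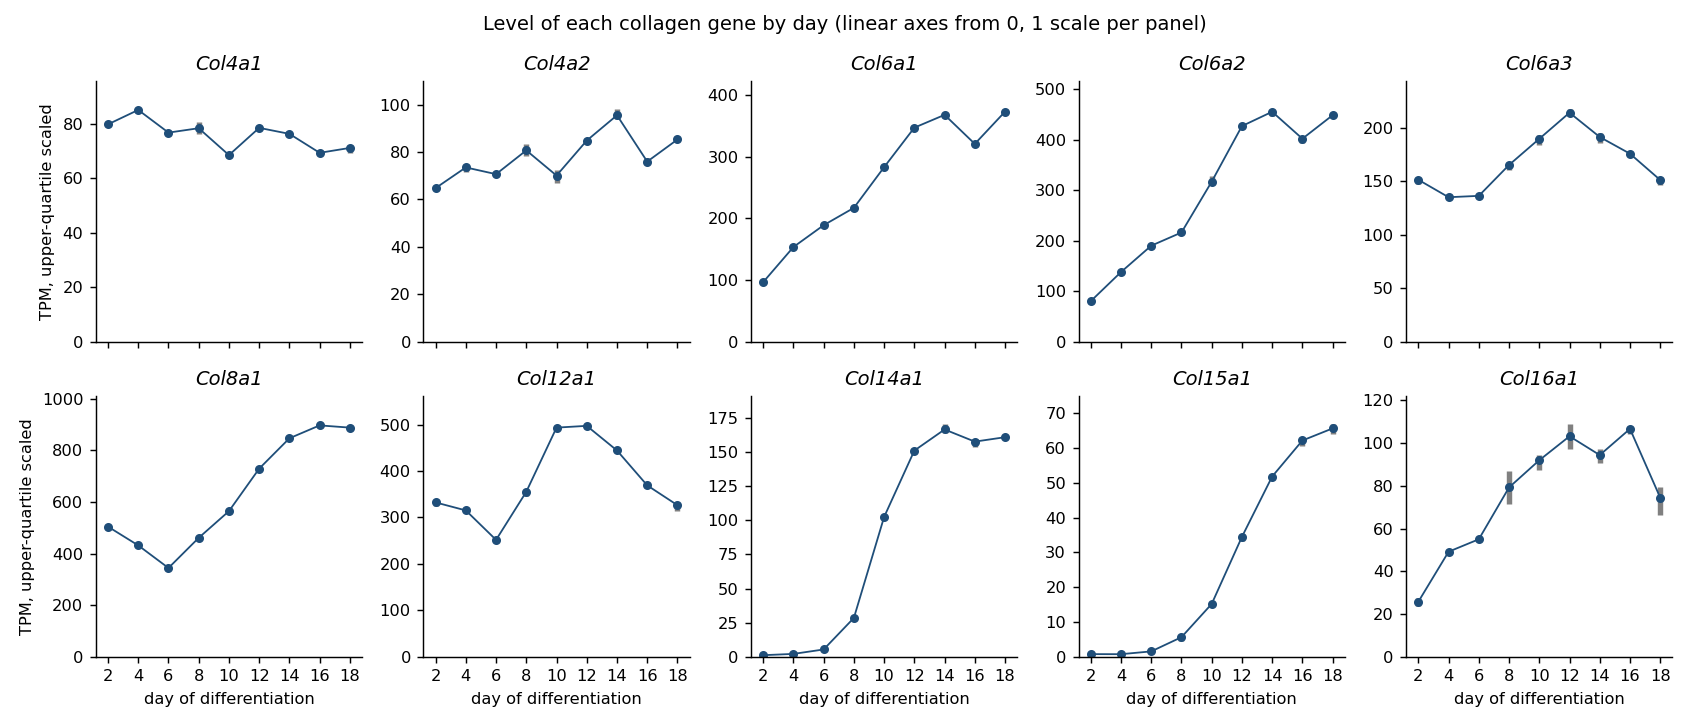
Level of each of the 10 collagen genes (vertical axis, upper-quartile scaled TPM, linear and starting at 0, with its own scale in each panel) against the day of differentiation (horizontal axis), with points for the mean of the 3 files of a day and grey bars for their range. Col14a1 and Col15a1 start at 1.17 and 0.767 TPM on day 2 and reach 161 and 65.6 TPM on day 18, while Col4a1 moves only between 68.5 and 85.1 TPM.

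The first test fitted a straight line in day to each gene by edgeR's quasi-likelihood method and expressed the slope as the log2 change from day 2 to day 18. Among the 10 collagens, 6 rose and 1 fell, against 28.3% of all genes tested called higher and 26.1% called lower at an adjusted p under 0.05. The median change was 1.30 over the 10 collagens and 0.05 over all genes tested. The second test asked for a change of any shape, with a natural spline of 3 degrees of freedom, and called 8 of the 10 collagens against 59.1% of all genes tested. The last tests compared days 2 to 6, 8 to 12 and 14 to 18, with the spread among neighbouring days standing in for replicates.

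Between days 2 to 6 and days 8 to 12, 7 of the 10 collagens rose and none fell, against 17.3% of all genes called higher and 13.6% called lower. Between days 8 to 12 and days 14 to 18 no collagen was called, and neither was any other gene by edgeR, so the share was 0% higher and 0% lower. At an unadjusted p under 0.05, 2557 of all genes tested and 2 of the collagens passed that comparison, and DESeq2 called 562 genes, no collagen among them. From days 2 to 6 to days 14 to 18, 6 of the 10 rose and none fell, against 26.7% of all genes called higher and 24.4% called lower. The count of 7 for the first step fell to 4 without day 10 and to 3 without day 12. Gaps between the TPM ranges of these groups of days, described below, were common among all genes tested. Days 8 to 12 lay wholly above days 2 to 6 in 21.8% and wholly below in 19.9%. Days 14 to 18 lay wholly above days 8 to 12 in 11.7% and below in 9.91%. Against days 2 to 6 they lay wholly above in 32.4% and below in 25.6%.

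**Figure D2:**
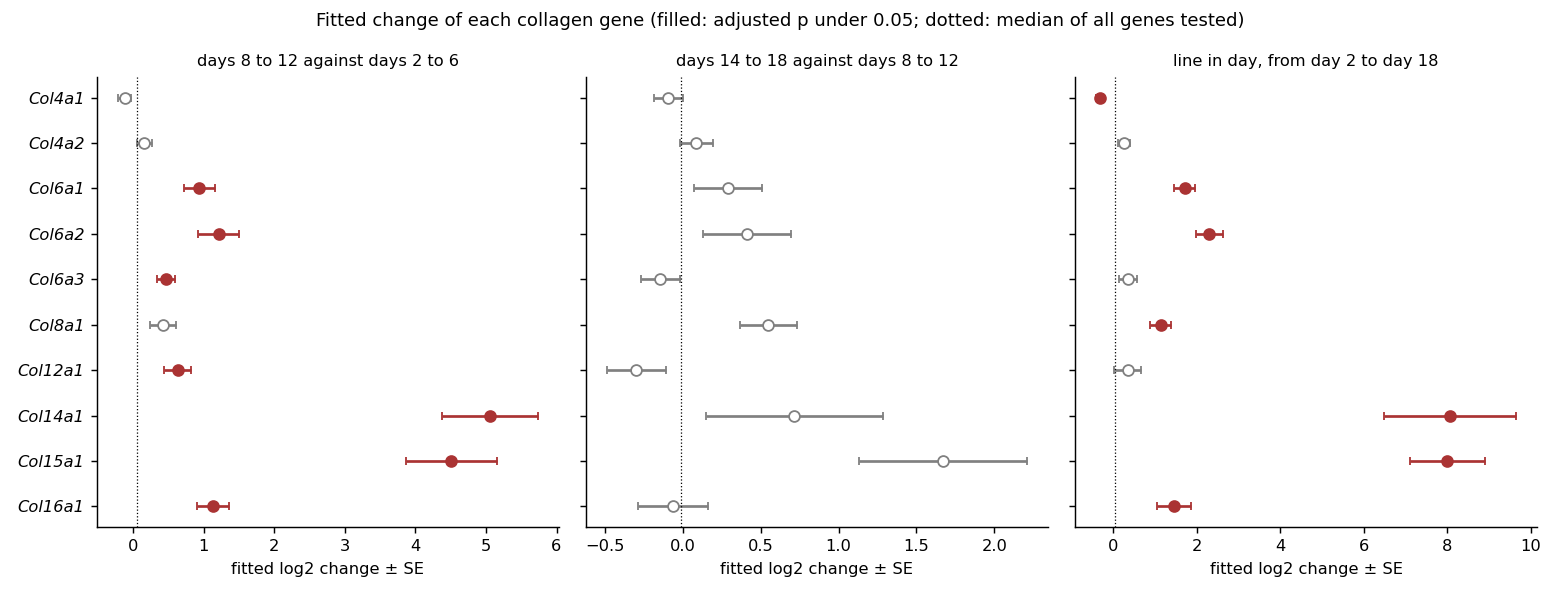
Fitted log2 change ± SE (horizontal axis, with its own scale in each panel) of each of the 10 collagens (vertical axis) for days 8 to 12 against days 2 to 6, for days 14 to 18 against days 8 to 12, and for a straight line from day 2 to day 18, with filled points for an adjusted p under 0.05 and a dotted line for the median of all genes tested. In the left panel 7 points are filled and in the middle panel 0, and in the right panel Col14a1 (8.07) and Col15a1 (8.01) lie far from the other 8 genes.

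Among the network collagens, the chains of collagen IV were close to level. Col4a1 (ENSMUSG00000031502, NCBIM37 chr8:11198423-11312826, minus strand) stood at 79.9, 85.1 and 76.8 TPM on days 2, 4 and 6, at 78.4, 68.5 and 78.6 TPM on days 8, 10 and 12, and at 76.3, 69.4 and 71.2 TPM on days 14, 16 and 18. The first 3 days lay above the last 3 by little, as in 25.6% of all genes tested, and the middle days overlapped both. The line fell by 0.31 (SE 0.10) on the log2 scale with an edgeR adjusted p of 0.0217. That call was lost without day 2, without day 4 or without day 16, with adjusted p of 0.0593, 0.0783 and 0.0616. The spline test gave an adjusted p of 0.0621.

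Col4a2 (ENSMUSG00000031503, chr8:11312805-11449287, plus strand) began at 64.8, 73.5 and 70.6 TPM on days 2, 4 and 6, continued at 80.7, 70.1 and 84.8 TPM on days 8, 10 and 12, and ended at 95.5, 75.9 and 85.3 TPM on days 14, 16 and 18. The last 3 days lay above the first 3, as in 32.4% of all genes tested, with the highest level on day 14. No test on the summed libraries of all 9 days called it. The line gave 0.27 (SE 0.13) with an edgeR adjusted p of 0.1197, and days 14 to 18 exceeded days 2 to 6 by 0.24 with an adjusted p of 0.0859, which became 0.0351 without day 16. The genes lie head to head, and their annotated ends overlap by 22 bases. Whether the counting used strand is not stated. The estimated counts of both genes were whole numbers in all 27 files, so no read was split between them in fractions.

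The ratio of Col4a1 to Col4a2 drifted. It was 1.23 on day 2, 0.979 on day 10 and 0.835 on day 18, with its lowest value of 0.7999 on day 14. Its log2 fell with day with Pearson's r = -0.928 (exact two-sided permutation p = 0.000529, adjusted over the 3 ratios tested 0.000529, 9 days) and Spearman's rho = -0.933 (exact permutation p = 0.00075, adjusted 0.00112). Without days 2 and 18, r was -0.878 (exact permutation p = 0.0103). The relation was computed over single libraries with no replicate at any day. Over the same days the correlation between the pair's log2 CPM was -0.26. This CPM scales counts to the library total and its upper-quartile factor, and not to length.

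Col8a1 (ENSMUSG00000068196, chr16:57624371-57754850, minus strand), the α1 chain of the network collagen VIII, had the highest TPM of the 10 genes on every day and lay at percentile 98.8 of all genes above 0 on day 2 and at 99.5 on day 18. Its levels were 504, 432 and 344 TPM on days 2, 4 and 6, then 461, 564 and 729 TPM on days 8, 10 and 12, and then 847, 897 and 888 TPM on days 14, 16 and 18. The gene thus dipped to day 6 and climbed to a plateau from day 14, and the last 3 days did not overlap any earlier day. The line rose by 1.14 (SE 0.24, edgeR adjusted p = 0.00272), and days 14 to 18 exceeded days 2 to 6 by 0.97 (SE 0.19, adjusted p = 0.00242). Days 14 to 18 exceeded days 8 to 12 by 0.55 with an unadjusted p of 0.0145 and an adjusted p of 0.223, the call that 0 genes passed. Its partner chain gene Col8a2 was far lower, at 9.56 TPM on day 2 and 56.9 TPM on day 18.

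The beaded collagen VI split into a rising pair, Col6a1 and Col6a2, and Col6a3, which ended where it began. Col6a1 (ENSMUSG00000001119, chr10:76171537-76188913, minus strand) rose from 96.7 TPM on day 2 through 154 and 189 TPM on days 4 and 6 and 217, 283 and 347 TPM on days 8, 10 and 12 to 368, 321 and 373 TPM on days 14, 16 and 18. Col6a2 (ENSMUSG00000020241, chr10:76058507-76086375, minus strand), the neighbour of Col6a1 on chromosome 10, rose from 80.4, 138 and 190 TPM through 216, 317 and 427 TPM to 456, 402 and 449 TPM on the same days. In both, days 2 to 6 lay below every later day, and the last 3 days overlapped day 12. The line rose by 1.72 (SE 0.25, edgeR adjusted p = 0.000332) for Col6a1 and by 2.31 (SE 0.32, adjusted p = 0.000229) for Col6a2.

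Most of that rise came before day 14. From days 2 to 6 to days 8 to 12, Col6a1 rose by 0.94 (SE 0.22, edgeR adjusted p = 0.0140) and Col6a2 by 1.21 (SE 0.29, adjusted p = 0.0141). Both lost that call without day 12, with adjusted p of 0.0531 and 0.0535, and Col6a1 also without day 10, with 0.0520. The next step was 0.29 for Col6a1 and 0.41 for Col6a2, with adjusted p of 0.524 and 0.484. The log2 CPM of the pair had a Pearson correlation of 0.998 over the 9 days, a description of libraries that share their depth. Among 7619 genes of at least 10 TPM on average, those most like Col6a1 were Col6a2, Col1a2 and Scarf2, and those most like Col6a2 were Col6a1, Mmp2 and Fam43a, by Pearson correlation of log2 CPM over the 9 days. Such likeness was common, since 647 of these genes reached 0.95 with Col6a1 and 708 with Col6a2.

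Col6a3 (ENSMUSG00000048126, chr1:92663435-92740529, minus strand), the large α3 chain from another chromosome, followed another course. It stood at 151, 135 and 136 TPM on days 2, 4 and 6, rose to 165, 190 and 214 TPM on days 8, 10 and 12, and returned through 191 and 176 TPM to 151 TPM on day 18. Its middle days all lay above the first 3 days, and the last 3 days overlapped both. The straight line gave 0.37 (SE 0.22, edgeR adjusted p = 0.177), and without day 18 it was 0.59 with an adjusted p of 0.0499. The spline passed with an adjusted p of 0.00211. Days 8 to 12 exceeded days 2 to 6 by 0.46 (SE 0.13, adjusted p = 0.0228), a call lost without day 4, day 10 or day 12, with adjusted p of 0.0861, 0.0832 and 0.0886.

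The balance of the 3 chains moved accordingly. On day 2, α3 mRNA was the most abundant of the chains per length, at 1.57 times Col6a1, and on day 18 the ratio was 0.405. The log2 ratio of Col6a3 to Col6a1 fell with day with r = -0.917 (exact two-sided permutation p = 3.31e-05, adjusted 9.92e-05, 9 days) and rho = -0.967 (exact permutation p = 0.000165, adjusted 0.000496). Without days 2 and 18, r was -0.950 (exact permutation p = 0.00238). The ratio of Col6a1 to Col6a2 fell over a smaller range, from 1.203 on day 2 to 0.832 on day 18, with r = -0.932 (exact permutation p = 0.000281, adjusted 0.000422) and rho = -0.883 (exact permutation p = 0.00308, adjusted 0.00308). Without days 2 and 18, its r was -0.958 (exact permutation p = 0.00119). The estimated mean transcript length of Col6a3 went from 5099 bases on day 2 to 5593 bases on day 18, which enters its TPM, and in CPM, which does not use length, the ratio of Col6a3 to Col6a1 ran from 1.98 at its highest to 0.563 at its lowest. These are mRNA ratios, and no protein was measured.

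**Figure D3:**
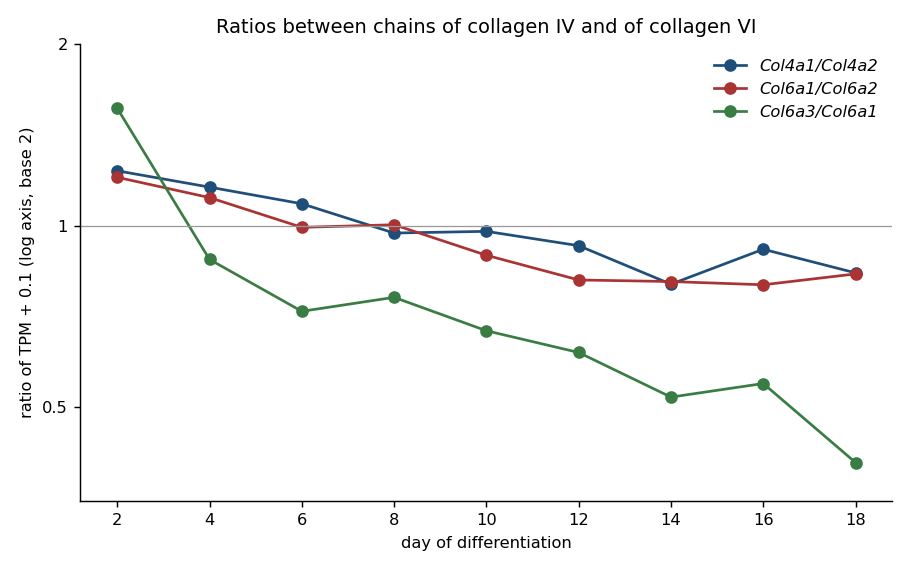
Ratio of upper-quartile scaled TPM (vertical axis, log scale of base 2, with 0.1 TPM added to each level) against the day of differentiation (horizontal axis) for Col4a1 over Col4a2, Col6a1 over Col6a2 and Col6a3 over Col6a1, with 1 point a day and a grey line at equal levels. The ratio of Col6a3 to Col6a1 falls from 1.57 to 0.405, and the other ratios fall from 1.23 to 0.835 and from 1.203 to 0.832.

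Among the FACIT collagens, Col12a1 (ENSMUSG00000032332, chr9:79446798-79566638, minus strand), whose product links fibrils to their surroundings, was the most abundant and rose and fell again. It stood at 332, 315 and 252 TPM on days 2, 4 and 6, at 355, 493 and 497 TPM on days 8, 10 and 12, and at 444, 369 and 326 TPM on days 14, 16 and 18. Days 10 and 12 were its highest days, and day 18 overlapped the first days. The line gave 0.35 (SE 0.33, edgeR adjusted p = 0.403) and the spline an adjusted p of 0.0107, which became 0.0639 without day 4. Days 8 to 12 exceeded days 2 to 6 by 0.63 (SE 0.19, adjusted p = 0.0319), and this was lost without day 4, 6, 10, 12 or 16, with adjusted p from 0.0514 to 0.125. The course was most like that of Ash1l (r = 0.98) and, next, Col6a3 (r = 0.93), over the 9 days in log2 CPM.

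Col14a1 (ENSMUSG00000022371, chr15:55139305-55352358, plus strand), a FACIT collagen that binds the surface of fibrils through the leucine-rich proteoglycan decorin among others, had the highest ratio of its highest to its lowest day in TPM, at 142, against 88.0 for Col15a1, while in CPM with TMM factors Col15a1 had the higher ratio, at 146 against 122. Its levels were 1.17, 2.12 and 5.36 TPM on days 2, 4 and 6, then 28.5, 102 and 151 TPM on days 8, 10 and 12, and then 167, 158 and 161 TPM on days 14, 16 and 18. It rose at each step to day 14 and then stayed within a narrow band, with no overlap between the first, middle and last 3 days. The shares of all genes with such gaps are given with the tests above. Behind the lowest level were 187 counts summed over the day, and behind day 12, the most deeply sequenced day, 29254 counts.

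For Col14a1 the line gave 8.07 (SE 1.58, edgeR adjusted p = 0.00166), more than the observed change between days 2 and 18, since its course bent. That change ranked 99th from the top of the 15659 genes tested. From days 2 to 6 to days 8 to 12 it rose by 5.06 (SE 0.68, adjusted p = 0.00412), and the next step was 0.72 with an adjusted p of 0.549. Among genes above 0 its level went from percentile 34.4 on day 2 to 96.7 on day 18. The genes most like it over the 9 days were Meox2, Rspo3 and Egfl6, each with r of 1.00 after rounding, and 710 of the 7619 genes compared reached 0.95.

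Col15a1 (ENSMUSG00000028339, chr4:47221033-47326039, plus strand), the multiplexin, started later and went on longer. Its levels were 0.767, 0.746 and 1.55 TPM on days 2, 4 and 6, then 5.63, 15.2 and 34.4 TPM on days 8, 10 and 12, and then 51.8, 62.1 and 65.6 TPM on days 14, 16 and 18. It rose at every step from day 4, and no day of a later group overlapped an earlier group. The first levels rest on 44, 29 and 89 counts, and on day 4 the 3 files of the day ranged from 0.329 to 1.17 TPM, so the fold against the first days is imprecise.

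The line for Col15a1 rose by 8.01 (SE 0.91, edgeR adjusted p = 8.91e-05), rank 103 of all genes tested. It and the line of Col14a1 differed by less than their SEs, their order turned without day 2, 4, 6, 10 or 12 or without replicate 2, and from days 2 to 6 to days 14 to 18 Col15a1 had 6.18 (SE 0.68) and Col14a1 5.77 (SE 0.70). Days 8 to 12 exceeded days 2 to 6 by 4.51 (SE 0.64, adjusted p = 0.00428). The last 3 days exceeded days 8 to 12 by 1.67 (SE 0.54), with an unadjusted p of 0.0118 and an adjusted p of 0.216, and without day 12 the adjusted p was 0.0472. The genes most like it were Ecm2, Fxyd1 and Sepp1, each with r of 1.00 after rounding, and 670 of the 7619 genes compared reached 0.95. With Col14a1 its r was 0.97 over the 9 days.

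Col16a1 (ENSMUSG00000040690, chr4:129725084-129776527, plus strand), a FACIT collagen found near cells and in fibrillin microfibrils, rose early and then held. It stood at 25.8, 49.2 and 55.0 TPM on days 2, 4 and 6, at 79.3, 92.0 and 103 TPM on days 8, 10 and 12, and at 94.4, 107 and 74.5 TPM on days 14, 16 and 18. All later days lay above the first 3, and day 18 lay below the others from day 8 on, although its 3 files, at 66.3 to 79.5 TPM, overlapped those of day 8, at 71.5 to 87.2 TPM. The line rose by 1.46 (SE 0.41, edgeR adjusted p = 0.0115), and without day 2 it was 0.95 with an adjusted p of 0.0584. Days 8 to 12 exceeded days 2 to 6 by 1.13 (SE 0.23, adjusted p = 0.00826), and the next step was -0.07 with an adjusted p of 0.907. Its nearest genes in course were Igdcc4, Pik3r3 and Mt1, with r of 0.99 to 1.00 after rounding, and 209 of the 7619 genes compared reached 0.95.

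**Figure D4:**
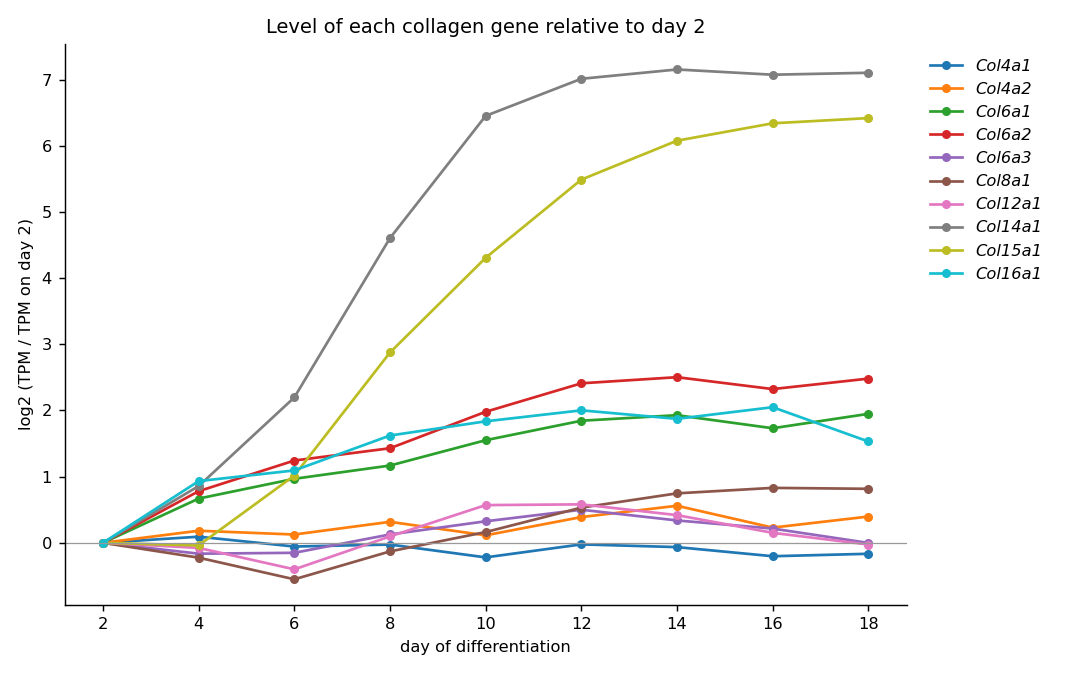
Level of each of the 10 collagens relative to its own level on day 2 (vertical axis, log2 of the TPM ratio) against the day of differentiation (horizontal axis), with 1 line a gene. Col14a1 and Col15a1 rise to 138 and 85.6 times their day 2 level on day 18, Col6a2, Col6a1 and Col16a1 to 5.59, 3.86 and 2.89 times, and Col4a1, Col6a3 and Col12a1 end at 0.891, 0.999 and 0.982 times.

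The order of the levels changed with time. On day 2, in falling order of TPM, the genes ran Col8a1, Col12a1, Col6a3, Col6a1, Col6a2, Col4a1, Col4a2, Col16a1, Col14a1 and Col15a1, and only Col6a2 and Col4a1 overlapped in the range of their 3 files. On day 18 they ran Col8a1, Col6a2, Col6a1, Col12a1, Col14a1, Col6a3, Col4a2, Col16a1, Col4a1 and Col15a1, with Col16a1 and Col4a1 overlapping. That order rests on the estimated transcript length that enters TPM. Over the files this length was 1097 to 1327 bases for Col16a1, 6553 to 6615 bases for Col4a1 and 1020 to 3583 bases for Col15a1. In CPM from the library total alone, which does not use length, Col16a1 stood at 45.4 and Col4a1 at 273 on day 18. The range of the files covers sequencing and quantification only, not cultures. Whole-number counts were found for all 10 genes in all 27 files.

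Of 19 other collagens of these and related classes, 17 could be tested, 11 rose, 3 fell and 3 did not pass. Col26a1 rose by 8.34, from 0.441 to 65.4 TPM between days 2 and 18, and Col6a6, an alternative α3-like chain of collagen VI, rose by 7.13 but stayed at or below 1.91 TPM. Col7a1, the anchoring fibril collagen, fell by 5.28, and Col4a5, an α chain of another basement membrane collagen IV, fell by 2.54, from 55.1 to 10.97 TPM. The median line change of the 17 tested was 3.14. These counts and this median include genes near the floor. Col4a4, Col10a1, Col19a1, Col20a1 and Col22a1 rose with mean levels of 0.0634 to 0.652 TPM. Col4a6, which fell, had a mean of 0.768 TPM, and Col4a3, which did not pass, 0.148 TPM.

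Of 7 fibrillar collagens, on which FACIT collagens lie, 5 rose and none fell, with a median change of 1.92. Col1a1 went from 1526 to 4263 TPM between days 2 and 18, Col1a2 from 983 to 4114 TPM and Col3a1 from 160 to 1480 TPM, and Col5a1 and Col5a2 did not pass, at 206 and 200 TPM and at 332 and 312 TPM on those days. Among 17 partners in basement membranes 7 rose, 3 fell and 7 did not pass, with a median of 0.45. Nid1 and Nid2, the nidogens that tie laminin to collagen IV, rose by 1.41 and 2.90, and Hspg2, which encodes perlecan, fell by 2.06, from 177 to 42.7 TPM. Of 10 collagen receptors 6 rose, 3 fell and 1 did not pass. Antxr1 rose by 1.55, from 102 to 284 TPM, and Cspg4, a proteoglycan that binds collagen VI, fell by 2.16, from 20.7 to 4.39 TPM. The integrin subunit gene Itgb1 fell by 1.57, from 805 to 278 TPM. These lists are described by counts alone, beside the shares of 28.3% and 26.1% for all genes.

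The labelled cell type was osteoblast, and of 7 osteoblast markers 5 rose on the line and none fell on it. This count and those of the other marker lists stand beside shares of 28.3% called higher and 26.1% called lower among all genes tested. Bglap, encoding osteocalcin, went from 1.24 to 208 TPM and Ibsp from 0.581 to 78.4 TPM between days 2 and 18, while Alpl, the alkaline phosphatase of bone, lay at 17.6 TPM or less on every day. Sp7, which encodes the osteoblast transcription factor osterix, did not pass the line test (-1.23, SE 0.83, edgeR adjusted p = 0.233) but passed the spline (adjusted p = 1.2e-05), with 32.3 TPM on day 2, a lowest level of 2.77 TPM and 10.6 TPM on day 18. Markers of other cells moved too. All 5 adipocyte markers rose, with a summed level of 3.21 to 7.44 TPM on days 2 to 6, 6.51 to 103 TPM on days 8 to 12 and 188 to 407 TPM on days 14 to 18. Of 7 monocyte and macrophage markers 6 rose, with sums of 24.1 to 61.7, 68.1 to 451 and 522 to 2014 TPM in the same periods. Of 6 pericyte and smooth muscle markers 5 fell, and their sums were 2613 to 5244, 1192 to 1878 and 920 to 1061 TPM. Most of that sum was Acta2, at 5155 TPM on day 2 and 868 TPM on day 18. Pdgfrb did not pass, at 45.8 and 57.4 TPM on those days. Most of the monocyte and macrophage sum on day 18 was likewise 1 gene, Lyz2, at 1855 TPM.

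The remaining lists were small. Of 7 endothelial markers 4 could be tested, 2 rose and 1 fell, their sums never passed 14.2 TPM, Tie1 had 0 counts in all files, and Pecam1 and Emcn had 68 and 11 counts in all. Of 4 Schwann cell markers 2 could be tested and both rose, with sums of 2.98 to 6.42, 12.0 to 32.7 and 39.2 to 49.2 TPM, and of 5 chondrocyte markers 4 could be tested, 2 rose and 1 fell. The part of these cells in the course of any collagen was not tested. In bulk RNA, fewer cells of a type and less RNA per cell cannot be told apart, and time in culture and any difference between cultures or libraries of different days cannot be told apart either.

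**Figure D5:**
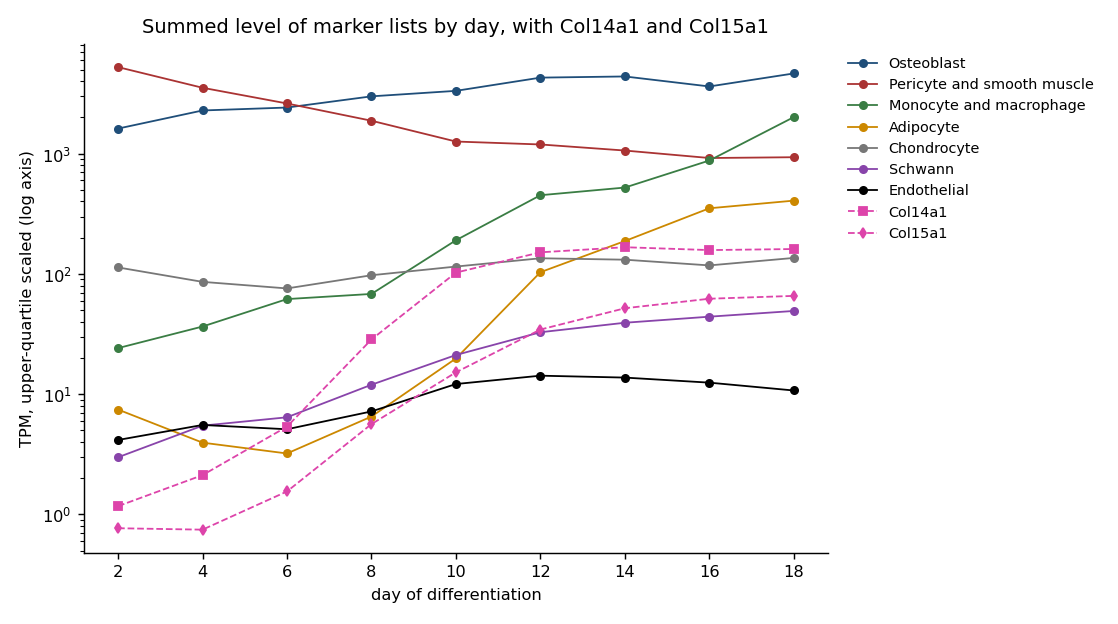
Summed level of 7 lists of cell type markers (vertical axis, upper-quartile scaled TPM on a log scale) against the day of differentiation (horizontal axis), with the levels of Col14a1 and Col15a1 as dashed lines. The monocyte and macrophage sum reaches 2014 TPM and the adipocyte sum 407 TPM on day 18, and the pericyte and smooth muscle sum falls from 5244 TPM on day 2. Lyz2 makes up most of the monocyte and macrophage sum on day 18. Acta2 makes up most of the pericyte and smooth muscle sum on days 2 and 18, and Col1a1 most of the osteoblast sum.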

How the data were processed

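RNA from sorted mouse calvarial cells of 9 days was amplified as cDNA, sequenced in 3 lanes a day, aligned by the authors with Bowtie 0.12.9 to the NCBIM37 transcriptome and quantified with RSEM, whose version is 1.2.8 in the submitters' processing notes and differs in the paper's methods. The authors deposited the estimated count (expected count), TPM and FPKM of each gene per file. Totals ran from 7331125 to 20888956 estimated counts a file and from 22470195 to 62009157 a day. The 3 files of a day differed by no more than sampling noise over genes with whole counts (chi-square per degree of freedom of 0.999 to 1.02) and were summed and rounded.

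The sums were fitted with edgeR 4.0.16 in R 4.3.3 (quasi-likelihood tests, factors from the upper quartile, low genes removed by filterByExpr at min.count 10, Benjamini-Hochberg adjusted p under 0.05 over all 15659 genes) and tested on simulated data. Ratios of TPM were taken after adding 0.1 TPM. FPKM served only as an alternative for the ratios. The genes most like a collagen were those with the highest correlation among genes of at least 10 TPM on average. Alternatives were TMM or no factors, DESeq2 1.42.0, other filters, no mitochondrial ribosomal RNA (21.4% to 25.7% of counts), each day or lane file left out, the 27 files as samples, and other units. From the fixed lists, up to 2 genes each way past the line test and genes over 100 TPM were open to naming. The collagens and lists were chosen with earlier results of these data known. Replicate numbers are lane numbers and paired no samples.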

Additional observations from a re-analysis of the deposited data

How the results depend on the processing

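There was 1 library a day, so the lane files give no replicate error, and the scatter of neighbouring days around a curve also holds departures from that curve. Of the values for single collagens under all alternatives, 1009 stayed as they were, 16 lost the threshold, 47 gained it and 3 changed sign. Another 25 moved. Of these, 7 were peak days, where any change of day counted, and 18 were folds that moved by more than the spread between lane files. Leaving out 1 day or 1 lane file gave 5 (without day 2) to 7 (without day 18) collagens on a rising line and 0 to 1 on a falling one, 3 to 8 collagens and 2175 to 6257 genes between days 2 to 6 and days 8 to 12, and 0 to 1 collagens called lower from days 2 to 6 to days 14 to 18. For days 8 to 12 against days 14 to 18 it gave 0 to 1 collagens and 0 to 379 genes, the larger values without day 12. In that last comparison the small change of Col4a2 ranged from -0.00734 (without day 14) to 0.17, and that of Col16a1 from -0.18 to 0.0266 (without day 10), with 0.00829 without day 18. DESeq2 called 562 genes there. With no factors, 1 collagen, Col4a1, was called lower from days 2 to 6 to days 14 to 18, and the median line change of all genes moved from 0.05 to -0.07. The spline test called Col4a1 with TMM factors, no factors, DESeq2, both other filters or without replicate 3, with adjusted p from 0.0116 to 0.0484.

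With the 27 files as samples, which takes lanes for replicates, 1 collagen was called lower from days 2 to 6 to days 8 to 12 and 1 to days 14 to 18, and from days 8 to 12 to days 14 to 18 3 were called higher and 3 lower. The genes called were 9621 for the first step and 5648 for the last. With a replicate block these counts were 1, 1, 2 higher and 2 lower, 9456 and 5361. The deviations of files with the same number in different days had a mean correlation of 0.00485 (from -0.0921 to 0.0842), so the numbers did not pair the files. The r of the 3 ratios with day stayed between -0.971 and -0.885 with 1 day or lane file left out. Highest days also depended on the unit: Col6a3 peaked on day 10 in TPM as deposited, and Col12a1 on day 10 in that unit and in CPM. Changes of Col15a1 on days 2 to 6 are limited by depth, with 29 to 89 counts a day.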
